A study of Mus musculus with 9 samples.

Results

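The 9 myeloid C-type lectin receptor genes Clec4e, Clec4d, Clec4n, Clec7a, Clec5a, Clec4a1, Clec4a2, Clec4a3 and Clec12a were followed across mouse bone marrow-derived macrophages given a chemokine or a control protein. They were chosen by gene symbol, with earlier results of these data known. All 9 were found among the 13593 genes of the count table. Marrow of wild-type C57BL/6 mice aged 6 weeks was grown for 7 days in medium with 15% L929 supernatant, which supplies macrophage growth factor. The cells were then given CCL26, CX3CL1 or, as control, bovine serum albumin (BSA), each at 4 nM for 4 h, with 3 libraries per group and no other allele or agent. The labels do not say whether the 3 libraries of a group came from separate mice or cultures, so p-values measure the spread between libraries, which may be technical.

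C-type lectin receptors on macrophages and neutrophils recognise sugars and lipids of fungi, mycobacteria and damaged host cells. Activating members signal through tyrosine motifs (ITAMs), either in an adaptor such as the Fc receptor gamma chain (Fcer1g) or DAP12 (Tyrobp), or in their own tail. The kinase Syk then works through CARD9, BCL10 and MALT1 to NF-kB, and cytokine genes follow. Inhibitory members instead carry an ITIM, which recruits the phosphatases SHP-1 and SHP-2.

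All 9 genes lie on chromosome 6 (GENCODE M21, GRCm38). From Clec4a1 to Clec4e, 6 of them fall within 368 kb, while Clec12a and Clec7a lie together within 130 kb and Clec5a lies alone at chr6:40574894-40585821. Clec4d (chr6:123262111-123275265, plus strand) and Clec4e (chr6:123281789-123289870, minus strand) are neighbours whose 3′ ends face each other across 6.5 kb. RefSeq (GRCm38.p6) gave windows of 250 bases before the start for 8 of the 9 genes, Clec4n not among them. The windows of Clec4e (chr6:123289872-123290121, minus strand) and Clec4d (chr6:123261857-123262106, plus strand) are shown because Clec4e passed the test with CCL26 and its neighbour Clec4d did not. Each is written 5′ to 3′ along its gene, with motif matches in capitals.
Clec4e: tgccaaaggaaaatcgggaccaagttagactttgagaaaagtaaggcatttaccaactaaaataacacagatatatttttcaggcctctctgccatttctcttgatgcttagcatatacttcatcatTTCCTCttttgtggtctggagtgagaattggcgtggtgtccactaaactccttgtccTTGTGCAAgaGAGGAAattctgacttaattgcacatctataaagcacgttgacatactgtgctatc
Clec4d: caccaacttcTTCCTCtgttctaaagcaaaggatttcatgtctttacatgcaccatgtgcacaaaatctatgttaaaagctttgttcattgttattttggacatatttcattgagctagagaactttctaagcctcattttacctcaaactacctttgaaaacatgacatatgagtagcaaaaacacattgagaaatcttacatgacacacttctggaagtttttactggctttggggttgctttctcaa
Searched on both strands, GAGGAA, the core bound by PU.1 and other ETS factors, was found in the windows of 7 of the 8 genes, Clec4a2 being the exception, and in 23.2% of all 32851 windows of the same length. The C/EBP motif TTGCNNAA was found in Clec4e, 66 to 59 bases before the start, and in Clec12a, and in 9.56% of all windows. In Clec4e it lies just upstream of a GAGGAA match at 56 to 51 bases, and a further match lies on the opposite strand at 123 to 118 bases. In Clec4d the 1 match, also on the opposite strand, lies at 240 to 235 bases. The AP-1 motif TGANTCA (6.75% of all windows) was found in Clec12a, a loose NF-kB consensus (45.8%) in Clec4a1 and the interferon-stimulated response element (2.98%) in 0 of the 8 genes. No 2 of the different motifs overlapped in the printed windows.

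Libraries held 16923982 to 23198324 counts. CX3CL1 replicate 1 stood apart: 1193 genes were at 0, against 80 to 170 in each other library, and its mean correlation with the other libraries across genes was 0.929, against 0.983 to 0.985. Fits are therefore given with all 9 libraries and, beside them, with the 8 that remain without it. Of 16 macrophage markers 15 were in the table, among them Adgre1 at 1650 to 3066 CPM (TMM-scaled counts relative to the library total) and Csf1r at 1058 to 1334 CPM across the 9 libraries. Markers of T and NK cells reduced to Cd4 at up to 1.55 CPM, and 4 stromal markers summed to at most 2.58 CPM.

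In the control cells the receptors spanned a wide range of levels. Per length of exon sequence, Clec4a1, of the DCIR family, stood at 296 ± 9.10 CPM per kb (SD, n = 3), the highest of the 9 and at percentile 99.0 of all genes with a gene model. Clec4d (MCL) followed at 254 ± 3.62 CPM per kb. Clec4a2, Clec12a, Clec4n and Clec4a3 formed a middle range at 66.8, 60.2, 51.3 and 42.7 CPM per kb. Clec4e (Mincle) ranked 7 of 9 at 26.5 ± 0.480 CPM per kb, above Clec5a at 10.7 ± 0.648 and Clec7a (the beta-glucan receptor Dectin-1) at 7.93 ± 0.658. The 3 BSA values of each gene stood clear of those of its neighbour in this order; the closest were the lowest Clec4n value, 46.7, and the highest Clec4a3 value, 46.0 CPM per kb. With CCL26, Clec4e reached 69.8 ± 3.69 CPM per kb and ranked 3, after Clec4a1 and Clec4d. With CX3CL1 it again ranked 7, at 30.9 ± 1.79 CPM per kb. The order depended on the length used: with the longest transcript in place of all exons, Clec12a was at 103 CPM per kb with BSA, Clec4d and Clec12a passed above Clec4a1 and Clec4a2, and Clec4e ranked 4 with CCL26, at 72.2 CPM per kb below Clec12a at 99.8, and 7 with CX3CL1 and with BSA.

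**Figure D1:**
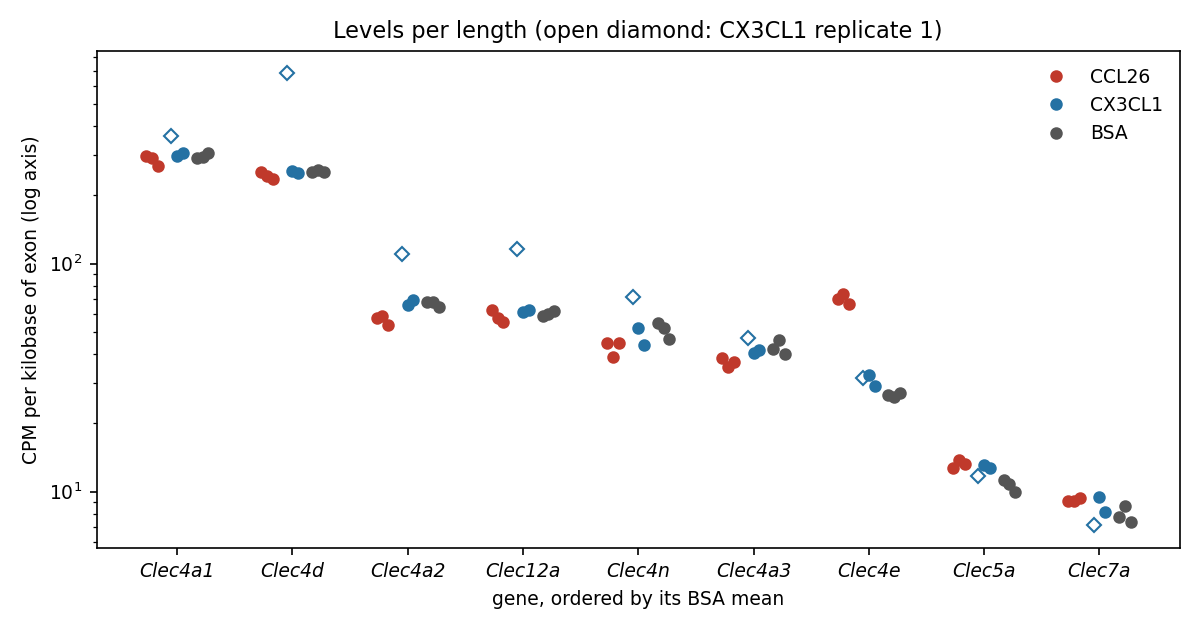
Level of each receptor gene per length of exon sequence (CPM per kb, log axis), with 1 point per library, ordered by the BSA mean. Clec4e has CCL26 points at 66.2 to 73.6 CPM per kb and BSA points at 26.0 to 27.0 CPM per kb.

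Among the 9 receptors, Clec4e had the largest log2 fold change with CCL26. It encodes Mincle, a receptor for mycobacterial cord factor and other glycolipids that signals through Fcer1g. Its level was 346, 365 and 329 CPM in the CCL26 libraries, 156, 161 and 144 CPM in the CX3CL1 libraries and 132, 129 and 134 CPM in the BSA libraries. Every CCL26 library was above every other library. Clec4e was 2.63-fold higher with CCL26 than with BSA (95% interval 2.24 to 3.10), with log2 fold change 1.40 ± 0.104 (SE) and an adjusted p of 0.000793 in edgeR's quasi-likelihood test. This was the fifth smallest p of the 12915 genes tested, and the log2 fold change ranked 119 among them. The fit without CX3CL1 replicate 1 again gave 1.40, with an adjusted p of 2.08e-16. CCL26 libraries were also higher than CX3CL1 libraries, by 2.26-fold (log2 fold change 1.17 ± 0.103, adjusted p = 0.00265 in edgeR; 1.19 and 1.25e-13 without CX3CL1 replicate 1). This call was lost when only the 6 libraries of the comparison were fitted (1.17, adjusted p = 0.0687 in edgeR). Granulocytes express Clec4e as well: the 11 of 14 granulocyte markers in the table summed to 108 to 110 CPM in CCL26 libraries, 101 to 202 CPM in CX3CL1 libraries and 95.6 to 100.3 CPM in BSA libraries. Ly6g, Retnlg and Cxcr2 were not among them, Elane and Ctsg were at 0 in some library, and the part of this cell type in the result was not tested. In bulk RNA, fewer cells of a type and less RNA per cell cannot be told apart.

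**Figure D2:**
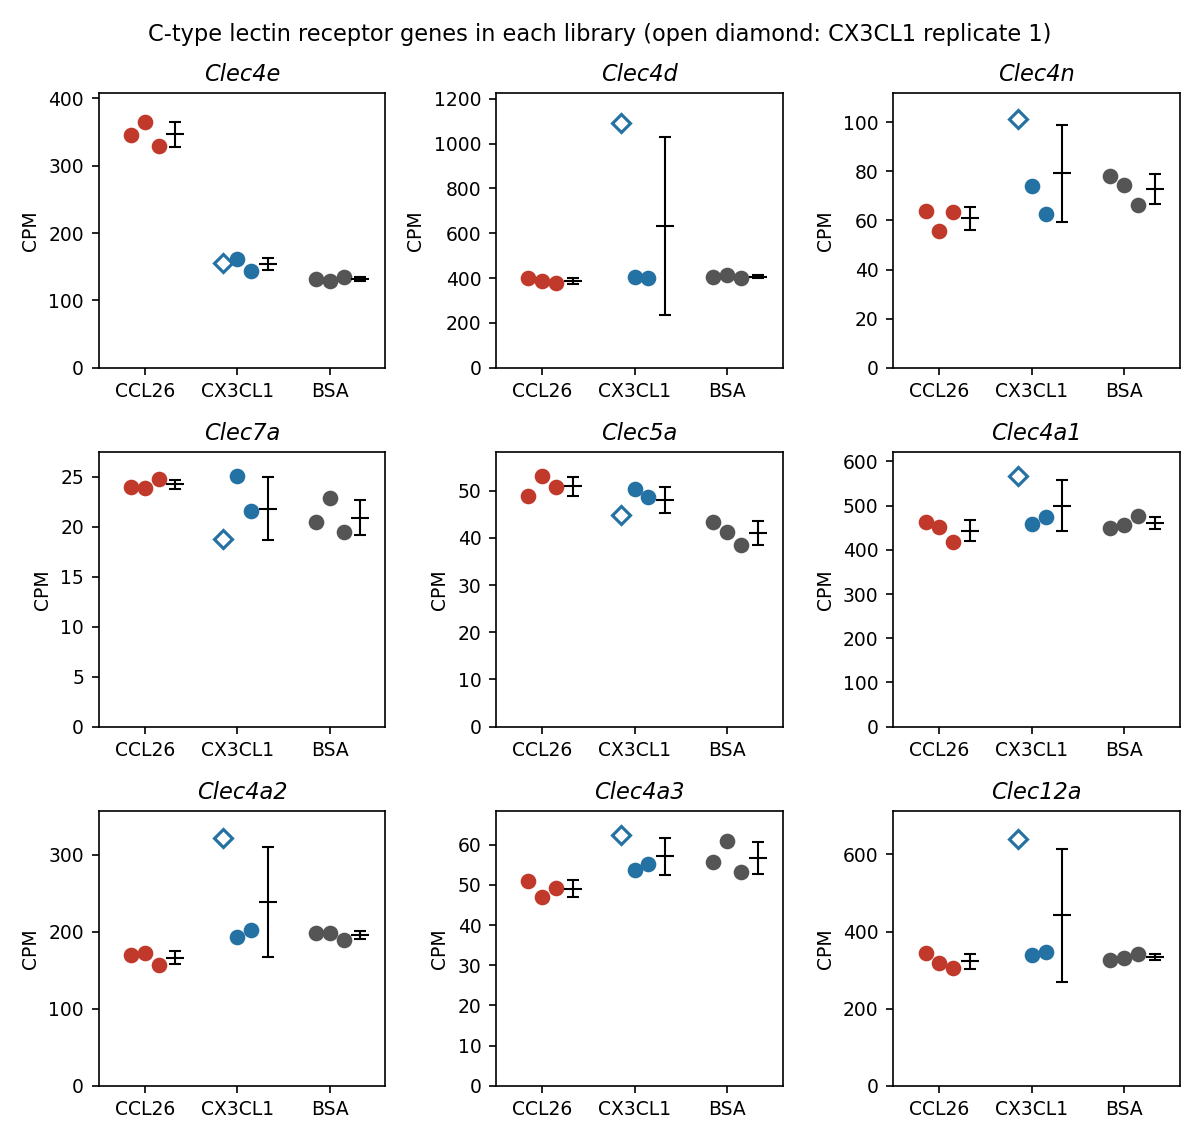
Level of each receptor gene in CPM by treatment, with 1 point per library and bars for the mean ± SD. Clec4e lies at 329 to 365 CPM in CCL26 libraries, above the 144 to 161 CPM of CX3CL1 libraries and the 129 to 134 CPM of BSA libraries, and CX3CL1 replicate 1 lies far above the rest for Clec4d and Clec12a.

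Clec4d, the neighbour of Clec4e, encodes MCL, which pairs with Mincle and uses the same adaptor. Its level was 401, 386 and 376 CPM in the CCL26 libraries and 403, 413 and 402 CPM in the BSA libraries. The CCL26 values were all lower, but by little: the log2 fold change was -0.07 (95% interval -0.85 to 0.71), and without CX3CL1 replicate 1 it was -0.06 (-0.14 to 0.01; adjusted p = 0.28 in edgeR), passing in neither fit. In the CX3CL1 libraries Clec4d was at 1090, 407 and 399 CPM, and replicate 1 was 2.71 times the median of the other 8 libraries. Within libraries, Clec4e per kb relative to Clec4d per kb was 0.278 to 0.305 in the CCL26 libraries and 0.101 to 0.107 in the BSA libraries. The ratio of Clec4e to each of the other 8 receptors was higher in every CCL26 library than in any of the other 6 libraries, and its CCL26 mean was 2.12 (to Clec5a) to 3.15 (to Clec4n) times the BSA mean.

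Clec4n encodes Dectin-2, which binds fungal alpha-mannans and also signals through Fcer1g. It was at 63.8, 55.5 and 63.5 CPM with CCL26 and at 78.0, 74.3 and 66.2 CPM with BSA, so that the groups did not overlap. The log2 fold change of -0.26 did not pass with all 9 libraries (95% interval -0.67 to 0.15) and passed without CX3CL1 replicate 1 (-0.26 ± 0.0795, adjusted p = 0.0245 in edgeR). CX3CL1 libraries held 101, 74.1 and 62.6 CPM, a range that covered that of the BSA libraries.

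Clec7a and Clec5a do not need Fcer1g: Dectin-1 carries its own ITAM-like motif, and CLEC5A works with DAP12. Clec5a was at 48.9, 53.0 and 50.7 CPM with CCL26, 44.9, 50.4 and 48.7 CPM with CX3CL1 and 43.4, 41.3 and 38.4 CPM with BSA. Both chemokine groups lay above the BSA group and overlapped each other. For CCL26 against BSA the log2 fold change was 0.31, which did not pass with all 9 libraries (95% interval 0.05 to 0.57, adjusted p = 0.632 in edgeR) and passed without CX3CL1 replicate 1 (0.31 ± 0.0768, adjusted p = 0.00473). Clec7a was at 24.0, 23.9 and 24.8 CPM with CCL26, 18.8, 25.1 and 21.5 CPM with CX3CL1 and 20.4, 22.8 and 19.5 CPM with BSA. Its CCL26 values were all above the BSA values, but the log2 fold change of 0.21 passed in neither fit (95% interval -0.12 to 0.54 with all 9 libraries; adjusted p = 0.178 without CX3CL1 replicate 1).

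Neither of the ITIM receptors passed as higher with CCL26. Clec4a2 encodes the inhibitory receptor DCIR. It was at 170, 172 and 157 CPM with CCL26 and at 199, 199 and 189 CPM with BSA, with no overlap. The log2 fold change was -0.23, which did not pass with all 9 libraries (95% interval -0.66 to 0.19) and passed without CX3CL1 replicate 1 (-0.23 ± 0.0487, adjusted p = 0.00126 in edgeR). Against the CX3CL1 libraries, at 321, 193 and 202 CPM, the log2 fold change of CCL26 was -0.52 with all 9 libraries (adjusted p = 0.423) and -0.24 ± 0.0541 without CX3CL1 replicate 1 (adjusted p = 0.0033).

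Clec12a encodes MICL, an inhibitory receptor that recognises uric acid crystals. It was at 345, 318 and 306 CPM with CCL26, 640, 338 and 347 CPM with CX3CL1 and 326, 331 and 341 CPM with BSA. CCL26 and BSA values overlapped, with a log2 fold change of -0.04 (95% interval -0.56 to 0.47 with all 9 libraries, and -0.13 to 0.05 without CX3CL1 replicate 1).

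Clec4a1 and Clec4a3 belong to the same gene family as Clec4a2, and reads from stretches these genes share could have been split between them or left uncounted. Clec4a1 was at 462, 451 and 417 CPM with CCL26 and at 450, 456 and 477 CPM with BSA, overlapping, with a log2 fold change of -0.06 (-0.05 without CX3CL1 replicate 1, 95% interval -0.14 to 0.03). Clec4a3 was at 51.0, 46.9 and 49.3 CPM with CCL26 and at 55.8, 61.0 and 53.3 CPM with BSA. Its CCL26 values were all lower, but the log2 fold change of -0.21 passed in neither fit (adjusted p = 0.968, and 0.0545 without CX3CL1 replicate 1, in edgeR).

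Counted together for CCL26 against BSA, 1 of the 9 receptors passed as higher (Clec4e) and 0 as lower, where 0.434% of all 12915 genes were called, 0.387% as higher and 0.0465% as lower. Leaving out CX3CL1 replicate 1, 2 were higher (Clec4e, Clec5a) and 2 lower (Clec4n, Clec4a2), where 19% of 13245 genes were called, 9.74% as higher and 9.26% as lower. The groups did not overlap for 7 of the 9, 3 higher and 4 lower with CCL26, against 33.1% of all genes, 16.6% higher and 16.5% lower. The median log2 fold change was -0.06 over the 9 receptors and 0.0044 over all genes. The macrophage markers, led by Lyz2, summed to 26696 to 27191 CPM in CCL26 libraries and 32632 to 33258 CPM in BSA libraries, and 0 of 15 passed with all 9 libraries. With 8 libraries 9 were lower and 0 higher, and their part in the receptor values was not tested. For CCL26 against CX3CL1, 1 of 9 passed (Clec4e, higher), where 0.41% of all genes were called, 0.395% as higher and 0.0155% as lower. Without CX3CL1 replicate 1 Clec4e was higher and Clec4a2 lower, where 10.1% were called, 5.47% as higher and 4.64% as lower. Groups did not overlap for 3 of 9 in that comparison, Clec4e higher and Clec4a2 and Clec4a3 lower, against 22.6% of all genes, 12.9% higher and 9.76% lower. The treatments share their control and each other's libraries, so these counts are not independent of each other.

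**Figure D3:**
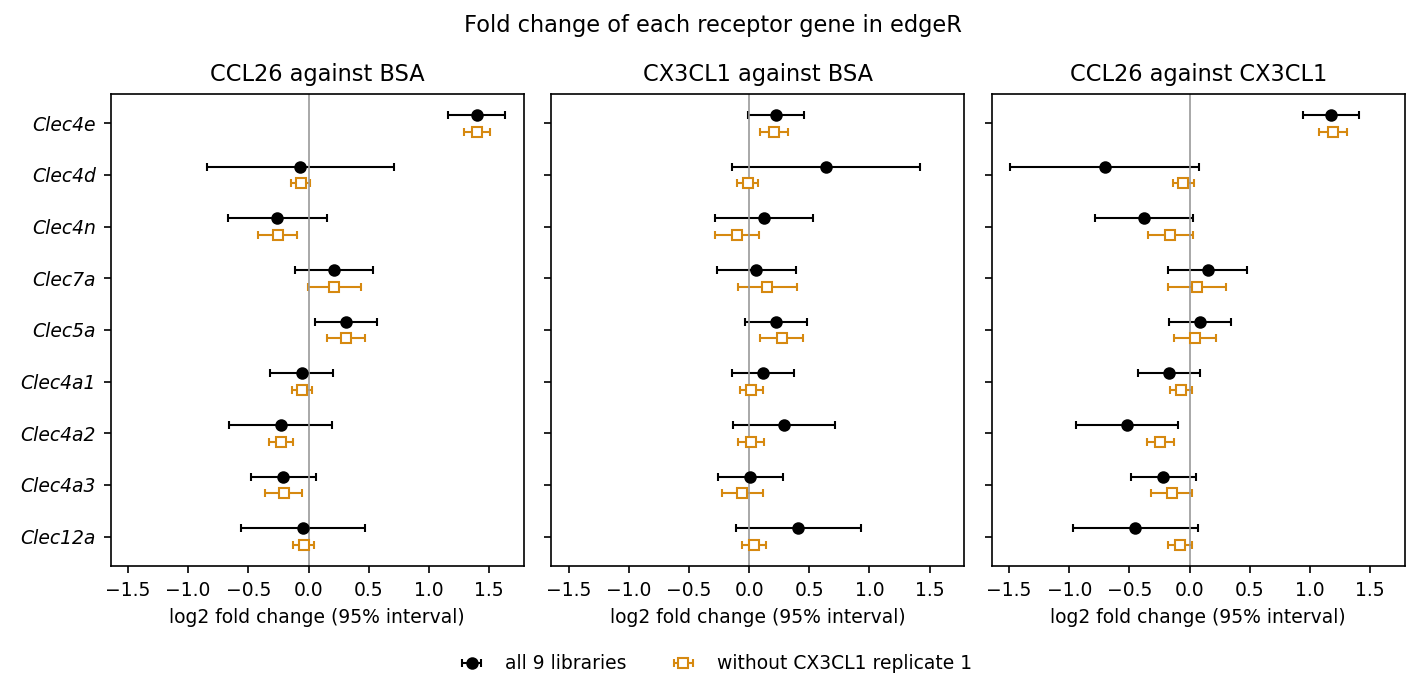
Log2 fold change of each receptor gene in the 3 comparisons, with 95% intervals, from the fit on 9 libraries (filled circles) and on the 8 without CX3CL1 replicate 1 (open squares). Clec4e lies at 1.40 in both fits for CCL26 against BSA, and the intervals of every gene narrow with 8 libraries.

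With CX3CL1, 0 of the 9 receptors passed against BSA in edgeR, in either fit; 0% of all genes were called with 9 libraries and 0.332% with 8, 0.0227% as higher and 0.31% as lower. DESeq2 and limma-voom also called 0 of the 9. At an unadjusted p under 0.05 there were 0 of 9 with all libraries, where 3.14% of all genes were, and 2 without CX3CL1 replicate 1, where 7.48% of all genes were. These were Clec4e, with a log2 fold change of 0.21 (95% interval 0.09 to 0.33, adjusted p = 0.152), and Clec5a, with 0.27 (0.09 to 0.45, adjusted p = 0.318). For these 2 genes the CX3CL1 and BSA values did not overlap, CX3CL1 being higher, against 11.7% of all genes, 4.77% higher and 6.93% lower. With all 9 libraries the log2 fold changes were positive for all 9 receptors, up to 0.64 for Clec4d, and for 49.4% of all genes. Without CX3CL1 replicate 1, 6 of 9 were positive, against 49.6% of all genes, and the value of Clec4d was -0.01 (-0.10 to 0.08).

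CX3CL1 replicate 1 lay outside the range of the other 8 libraries for most tested genes, and for most of these receptors as well. It was above all 8 others for 6 of the 9 receptors, where 36.2% of all genes were, and below all 8 for Clec7a, where 42.7% of all genes were. Clec4d stood at 2.71 times the median of the other 8 libraries, Clec12a at 1.91, Clec4a2 at 1.68 and Clec4n at 1.56, while Clec4e stood at 1.02, Clec5a at 0.920 and Clec7a at 0.805. Of all tested genes 8.84% had a larger ratio than Clec4d, 18.4% than Clec12a, 23.4% than Clec4a2 and 26.5% than Clec4n. In the same library the macrophage markers did not move as a set: of 15, 7 were above all 8 other libraries, 6 below and 2 within. Lyz2 was at 36699 CPM, against 18017 to 23731 CPM in the other 8, and set most of the marker sum of 45919 CPM, against 26696 to 33258 CPM. Adgre1 was at 1650 CPM, against 2755 to 3066 CPM, and Mertk at 14.7 CPM, against 50.9 to 65.8 CPM. Of 11 granulocyte markers 8 were above all 8 others, 2 below (Mmp8 and Elane) and 1 within. They summed to 202 CPM, against 95.6 to 110.7 CPM, with S100a8 at 67.7 CPM and S100a9 at 69.3 CPM. The 6 dendritic cell markers in the table, 5 above and 1 within, summed to 42.4 CPM, against 14.3 to 19.7 CPM, with Batf3 at 25.0 CPM. The 4 B cell markers, led by Ighm, 3 above and 1 within, summed to 215 CPM, against 97.6 to 108 CPM. The 9 inflammatory monocyte markers, 3 above, 4 below and 2 within, summed to 91.6 CPM, against 86.8 to 107.9 CPM. Their part in the receptor values was not tested.

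Genes that act with or downstream of these receptors were followed with CCL26 as well. Whether the receptors had a part in the values of these genes was not tested. Of 32 genes for ITAM adaptors, Syk and the CARD9 pathway, 1 passed as higher against BSA with all 9 libraries, where 0.387% of all genes did. This was Nfkb2, an NF-kB subunit gene, with 136 ± 7.94 CPM in CCL26 libraries and 77.3 ± 3.21 CPM in BSA libraries (SD, n = 3 each; log2 fold change 0.82, adjusted p = 0.0408 in edgeR). Without CX3CL1 replicate 1, 13 were higher and 4 lower, where 9.74% of all genes were higher and 9.26% lower. The higher ones included Nfkb1 (log2 fold change 0.60), Relb (0.96) and the adaptor Lcp2 (0.53). Syk, named after its values were seen, was also higher (0.32), at 861 ± 15.7 CPM with CCL26 and 692 ± 4.59 CPM with BSA. Ptpn11, which encodes SHP-2, was listed with these genes and was higher as well (0.18). The lower ones included Fcer1g itself, at 591 ± 14.6 CPM with CCL26 and 703 ± 16.8 CPM with BSA (log2 fold change -0.25, adjusted p = 8.12e-06). Tyrobp (-0.16, adjusted p = 0.073) and Card9 (0.08, adjusted p = 0.588) did not pass. The median over the 32 genes was 0.12 with all 9 libraries.

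Of 13 genes for ITIM phosphatases and other brakes on this signalling, Ptpn11 not among them, 0 passed with all 9 libraries in edgeR. With 8 libraries, 3 were higher and 2 lower, where 9.74% of all genes were higher and 9.26% lower. Among the higher ones were Tnfaip3, which encodes the NF-kB inhibitor A20 (log2 fold change 0.59), and, chosen after its values were seen, Ptpn6, which encodes SHP-1 (0.13). The 2 lower ones were Dok2 (-0.29) and Inppl1 (-0.22).

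Of 18 cytokine and effector genes known as targets of the CARD9 pathway, 15 were in the table and 3 rose with CCL26 over BSA with all 9 libraries, where 0.387% of all genes were higher. This list, like the others, was chosen with earlier results of these data known, so its shares beside those of all genes are a description only. The part of the pathway in these values was not tested. Tnf was at 75.7 ± 5.56 CPM in CCL26 libraries and 39.7 ± 1.48 CPM in BSA libraries (SD, n = 3 each; log2 fold change 0.93, adjusted p = 0.0205 in edgeR). The neutrophil chemokine gene Cxcl2 had a log2 fold change of 1.05 (adjusted p = 0.0344 in edgeR) and Nos2, the inducible nitric oxide synthase, 1.63 (adjusted p = 0.0445). Nos2 was low, at 9.60 ± 0.765 CPM in CCL26 libraries and 3.10 ± 0.689 CPM in BSA libraries. The median over the 15 genes was 0.86, and 12 of the 15 were positive, against 50.7% of all genes. Named after their values were seen, Il1b (-0.76), Il10 (-0.71) and Il12b (-0.24) were lower and passed in neither fit. Their means were low, such as 2.47 CPM with CCL26 and 4.18 CPM with BSA for Il1b. Without CX3CL1 replicate 1, 9 of the 15 were higher and 0 lower, where 9.74% of all genes were higher. Tnf, Cxcl2 and Nos2 also passed against CX3CL1 with all 9 libraries, where 0.395% of all genes were higher. Without CX3CL1 replicate 1, 10 of the 15 passed, where 5.47% of all genes were higher. In edgeR, 0 of the 4 lists' genes passed for CX3CL1 against BSA in either fit.

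Of 65 other genes with C-type lectin-like domains, 24 were in the table, 23 were tested with all 9 libraries and 1 passed as higher with CCL26 over BSA, where 0.387% of all genes did. This was Cd69, an early activation marker, at 26.4 ± 0.534 CPM in CCL26 libraries and 8.43 ± 0.688 CPM in BSA libraries (log2 fold change 1.65, adjusted p = 0.00777 in edgeR). Without CX3CL1 replicate 1, 3 of 24 were higher and 4 lower, where 9.74% of all genes were higher and 9.26% lower.

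**Figure D4:**
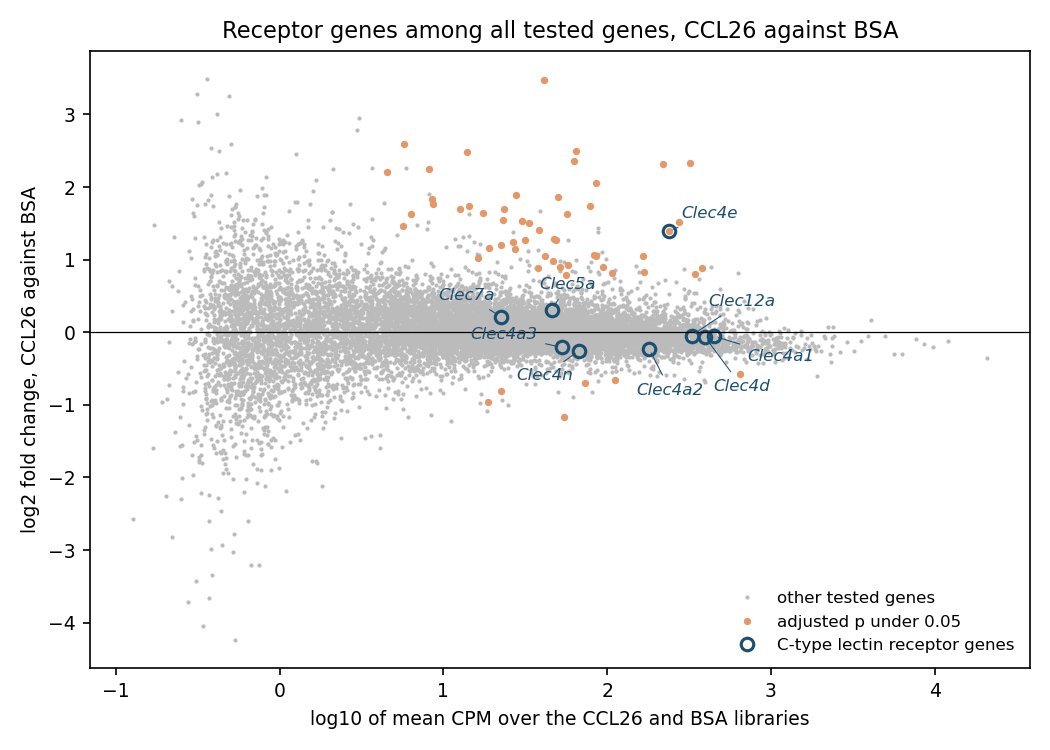
Log2 fold change of CCL26 against BSA for all 12915 tested genes by mean level, from the fit on 9 libraries, with the 9 receptor genes marked. Clec4e lies at 1.40 and the other 8 lie between -0.26 and 0.31.

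The genes whose pattern over the 9 libraries was most like that of Clec4e were found by the root mean square difference of log2 CPM, each gene centred on its own mean, among 11384 genes. Icosl, which encodes the ligand of the T cell costimulator ICOS, was nearest at 0.13, with 45.1 CPM on average in CCL26 libraries, 16.5 CPM in CX3CL1 libraries and 15.7 CPM in BSA libraries. The small Maf factor gene Maff followed at 0.16, then Usp18, which encodes the protease that removes ISG15, at 0.19, Olfr56 at 0.20 and Trim21, which encodes a ubiquitin ligase, at 0.20. Their log2 fold changes for CCL26 against BSA lay between 1.16 and 1.53. Those of Icosl, Maff, Usp18 and Trim21 passed in edgeR (adjusted p up to 0.0362), and that of Olfr56 did not (adjusted p = 0.108). Because these genes were picked by the same values, this outcome was largely set by the choice and is a description only.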

How the data were processed

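Per the labels' protocols, RNA was isolated with RNeasy kits, made into libraries with NEBNext Ultra II and run on a NovaSeq instrument as read pairs of 150 bp. The authors deposited 1 table of raw counts per gene, whole numbers without normalization. STAR, featureCounts and MultiQC, with the builds GRCm38 and mm10, come from the submitters' processing notes. Versions, and whether counting used strand, are not given in the sources used here. The names of the count columns end in ReadsPerGene.out.tab, and which of these tools made the counts was not established. Columns were matched to libraries by the sample codes of the labels, and 0 columns of values were left unmatched. Of 1343 genes without a symbol, 1333 were named from GENCODE M21.

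Genes were filtered with filterByExpr (12915 kept with all 9 libraries, 13245 with 8) and scaled by TMM. A model with 1 term, the treatment, was fitted over the 3 groups at once with the quasi-likelihood method of edgeR 4.0.16 under R 4.3.3, with Benjamini-Hochberg adjustment over all genes tested and a threshold of 0.05. The fit on 9 libraries is the main one. CPM values use TMM-scaled totals. Levels per kb divide by the union of exons in GENCODE M21. Alternatives were other scalings, filters, thresholds and dispersion, DESeq2 1.42.0, limma-voom (limma 3.58.1) with and without library quality weights, the replicate number as a block, and left-out libraries. Scripts were tested on simulated counts.

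The 9 receptors and the lists were chosen with earlier results of these data known. Named besides them are up to 4 genes with the smallest p per list and comparison, and the 5 genes of at least 1 mean CPM nearest in pattern to Clec4e. Some further list genes were named after their values were seen. Marker lists covered macrophages, granulocytes, inflammatory monocytes (86.8 to 107.9 CPM in sum over the 9 libraries), dendritic cells, stromal cells, T and NK cells, and B cells (97.6 to 215 CPM).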

Additional observations from a re-analysis of the deposited data

How the results depend on the processing

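The rise of Clec4e with CCL26 over BSA kept its direction and passed in all 30 alternatives, with log2 fold changes of 1.36 to 1.44 and adjusted p up to 0.0218. Of 9 receptors, 1 passed for that comparison in the main fit. Voom with quality weights called 5, and 1297 higher and 1182 lower of all 12915 genes. The fit on the comparison's 6 libraries called 4, and 1172 higher and 1245 lower of all 12495 genes. Leaving out 1 library gave 1 to 4, and 9 to 1290 higher and 0 to 1227 lower of all genes. Leaving out CX3CL1 replicate 1 with a BSA or CCL26 library gave 3 to 5, Clec4e, Clec5a and Clec4a2 being in each. Of all genes these fits called 988 to 1359 higher and 918 to 1375 lower. Clec4n no longer passed there without BSA replicate 1, BSA replicate 2 or CCL26 replicate 2, and Clec4a3 passed without BSA replicate 3. For CX3CL1 against BSA, 0 passed, and 1 without CX3CL1 replicate 1 and CCL26 replicate 3 (Clec4e, log2 fold change 0.21, adjusted p = 0.0124 in edgeR). That fit called 35 higher and 152 lower of all 13173 genes. For CCL26 against CX3CL1, 1 passed in the main fit. The fit on its 6 libraries gave 0 (Clec4e 1.17, adjusted p = 0.0687 in edgeR), and 4 higher and 0 lower of all genes. Quality weights gave 2, and 754 higher and 586 lower of all genes. Leaving out any 1 library, or CX3CL1 replicate 1 with a BSA or CCL26 library, gave 1 to 2. Of all genes those fits called 10 to 867 higher and 0 to 853 lower. The labels' replicate numbers did not pair the libraries: deviations of same-numbered libraries correlated at -0.0782 to 0.0511. With the replicate block, 1, 0 and 1 passed for CCL26 against BSA, CX3CL1 against BSA and CCL26 against CX3CL1, and with the replicate block without CX3CL1 replicate 1, 4, 0 and 2.

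Of 810 values of a receptor under an alternative, 728 kept direction and side of the threshold, 46 newly passed, 1 no longer passed and 35 changed sign, none of these past the threshold. For CX3CL1 against BSA, quality weights gave Clec4d -0.0029, Clec4n -0.094 and Clec4a3 -0.060; the replicate block without CX3CL1 replicate 1 gave Clec4n -0.052 and Clec4a3 -0.048; and left-out libraries gave ranges of -0.0225 to 0.88 for Clec4d, -0.22 to 0.26 for Clec4n, -0.10 to 0.065 for Clec4a3, -0.018 to 0.42 for Clec4a2, -0.0045 to 0.17 for Clec4a1 and -0.054 to 0.26 for Clec7a. For CCL26 against CX3CL1 they gave -0.047 to 0.27 for Clec7a. Lists without CX3CL1 replicate 1 gave, for CCL26 against BSA and against CX3CL1, 17 and 13 adaptor and Syk genes (main 1 and 1), 5 and 1 ITIM genes (0 and 0), 9 and 10 cytokine genes (3 and 3) and 7 and 4 other lectins (1 and 1). Over all genes, CCL26 against BSA gave 50 higher and 6 lower with 9 libraries, and 1290 and 1227 with 8; over the alternatives these ran from 9 to 1359 and from 0 to 1375. With the longest transcript as length, the mean level over all libraries was 9.80 CPM per kb for Clec7a (main 8.46) and 113 for Clec12a (main 66.2), and the order of Clec4a1 and Clec4d, and of Clec4a2 and Clec12a, turned round, and Clec4e ranked 4 with CCL26 (main 3). The causes of these differences were not tested. For CCL26 against BSA the 95% interval of Clec4d was -0.85 to 0.71 with 9 libraries and -0.14 to 0.01 without CX3CL1 replicate 1.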
